A study of Capra hircus with 3 samples.

Results

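Protein-coding genes were compared between the mammary gland libraries of Laoshan dairy goats labelled peak and late lactation, 90 and 210 days after parturition. Each library was made from the pooled RNA of the same 5 goats, aged 4 years and in the third lactation, from 1 farm, with gland tissue taken by surgery under xylazine. The library labelled early lactation, 10 days after parturition, is given beside them. Every stage has 1 pooled library, so no spread between goats can be estimated, no test was run and no p-value is given. The values are FPKM, expression scaled by the authors to transcript length and mapped reads with Cuffdiff. The assembly holds 50041 loci, and loci with the same gene identifier were summed to 13023 protein-coding genes. Of these, 8693 had at least 5 FPKM in the peak-labelled or the late-labelled library and were described. The ratio used throughout is log2((late + 1)/(peak + 1)) of FPKM, so positive values are higher in the late-labelled library. With a pseudocount of 1, this ratio understates differences of genes at low FPKM. A gene was called 2-fold apart when this ratio was at least 1 or at most -1.

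During lactation, the luminal secretory cells of the mammary gland make caseins and whey proteins, build lactose in the Golgi, and assemble triglycerides into lipid droplets that leave the cell wrapped in membrane. Prolactin, acting through STAT5 and the transcription factor ELF5, sustains this programme. As lactation wanes and the gland involutes, secretory genes are known to decline, and proteases, matrix and immune genes to become more prominent.

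The labels of these libraries may be exchanged. Elsewhere in the study, a level of PAEP like that of the peak-labelled library appears under the name of late lactation, and each library is therefore named here by its label only. Defining genes of mammary epithelium were present in both, with 26998 FPKM of PAEP and 413 FPKM of KRT19 in the peak-labelled library, and 83113 and 364 FPKM in the late-labelled one. Of the defining markers of skeletal muscle and skin only TNNT3 and KRT10 were measured, both below 2 FPKM in each library, and those of red blood cells were not measured. In the wider lists of these tissues, the keratinocyte gene LGALS7 had 15.2 FPKM in the peak-labelled and 1.395 in the late-labelled library, and DES, of muscle cells, had 17.8 and 10.3. Their part in the results was not tested. A single unannotated locus took 46.0% of the summed FPKM in the peak-labelled library and 29.9% in the late-labelled one. The protein-coding genes held 30.0% and 45.4% of the sum, respectively. Of the deposited values with 7 digits, 95.7% to 99.3% per library ended in 5, so a value may be a mean of 2 numbers, which the sources used here do not state. The reads behind a value were not given, so the depth of each FPKM is unknown.

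Of the 8693 genes, 659 (7.58%) were at least 2-fold higher in the late-labelled library and 768 (8.83%) in the peak-labelled library, together 16.4%. These shares of all genes stand beside each count of list members below. Among the 7074 genes with 5 FPKM in both libraries, 487 were higher in the late-labelled and 229 in the peak-labelled one. At 4-fold the numbers were 79 and 173, and at 8-fold 6 and 30. The median ratio was 0.09, and 90% of genes lay between the percentile 5 at -1.42 and the percentile 95 at 1.21. The balance of the directions depended on scale. With FPKM scaled to the protein-coding sum without the 50 most abundant genes, ratios at high FPKM moved by about -0.23 and those at low FPKM by less. At this scaling, 428 genes were higher in the late-labelled and 991 in the peak-labelled library. Centred on the median of genes with 5 FPKM in both libraries, which was 0.14, the numbers were 505 and 933.

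**Figure D1:**
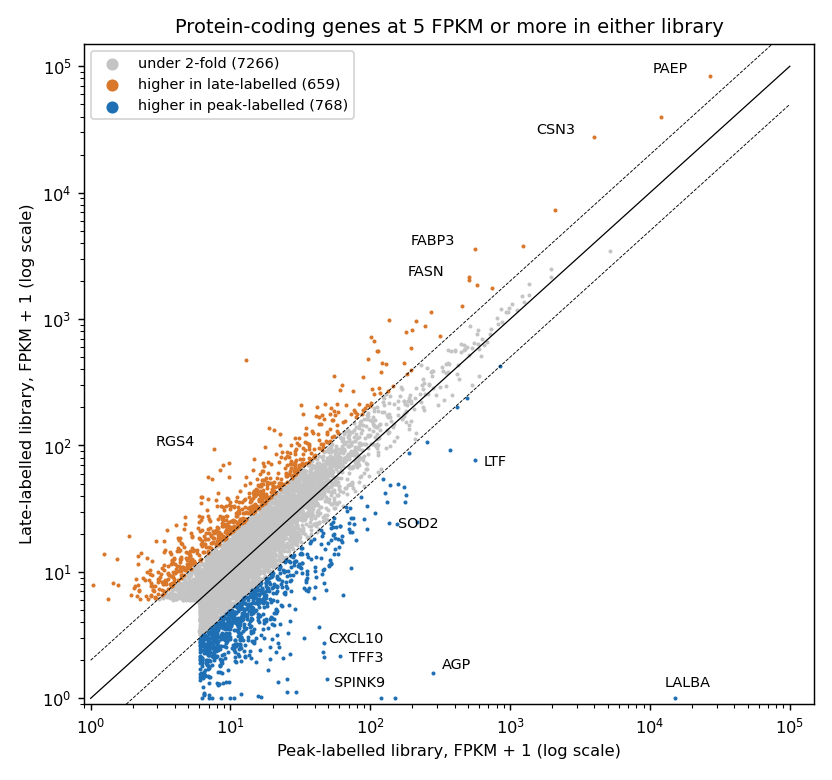
Each point is 1 of 8693 protein-coding genes, with FPKM + 1 in the peak-labelled library on the horizontal and in the late-labelled library on the vertical axis, both on log scales. The solid line marks equal values and the dashed lines 2-fold differences. Most of the highest genes lie on the late-labelled side, while LALBA lies on the floor because it was listed at 0.

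The abundant milk protein genes were higher in the late-labelled library. Of the 12 milk protein genes matched to the gene table, 10 were measured and had at least 5 FPKM, 8 were 2-fold higher in the late-labelled library and 2 in the peak-labelled one, with a median ratio of 1.71 against 0.09 over all genes. PAEP, the gene of beta-lactoglobulin and the main whey protein of ruminants, had 84874 FPKM in the early-labelled, 26998 in the peak-labelled and 83113 in the late-labelled library, a ratio of 1.62. Its value comes from a locus of 375925 nt that is also listed for other entries. CSN1S1, which encodes alpha-S1-casein, had 25057, 12017 and 39445 FPKM in the same order, a ratio of 1.71. CSN3 encodes kappa-casein, which keeps casein micelles in suspension. It had 25445, 3989 and 27391 FPKM, a ratio of 2.78, and was among the 10 named genes with the largest ratios. Both casein genes lie on scaffold NW_005100697.1 of an assembly that the deposited table does not name, CSN1S1 from 295416 to 307108 and CSN3 from 511320 to 524967. GLYCAM1, a mucin-like milk glycoprotein, followed with 6037, 2085 and 7237 FPKM, a ratio of 1.79. In each of these 4 genes the peak-labelled library was the lowest of the 3.

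The 2 genes counted the other way were LTF and LALBA, the latter only through a value listed at 0. LALBA encodes alpha-lactalbumin, the partner of the enzyme that makes lactose, and had 70053 FPKM in the early-labelled and 15214 in the peak-labelled library but was listed at 0 in the late-labelled one. An exact 0 for a gene at such a level elsewhere can be a failed estimate of the software, so no fold is given. With genes listed at 0 left out, 8 of 9 milk protein genes were 2-fold higher in the late-labelled library and 1 in the peak-labelled one. LTF, the iron-binding defence protein lactoferrin, had 1074 FPKM in the early-labelled, 556 in the peak-labelled and 75.3 in the late-labelled library, a ratio of -2.87. CSN1S2 and CSN2 were not analysed here. Tissue RNA does not tell fewer secretory cells apart from less RNA per cell. Among the luminal markers of structure, KRT8 had 196 FPKM in the peak-labelled and 154 in the late-labelled library. In the same order KRT18 had 32.0 and 19.5 and EPCAM 60.0 and 76.4, each under 2-fold apart. The luminal keratin gene KRT7, named after its values were seen, had 157 and 48.6 FPKM, a ratio of -1.67. In the wider luminal list, 4 of 24 genes were 2-fold higher in the peak-labelled library and 2 in the late-labelled one. The part of cell numbers was not tested.

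Genes of the milk fat globule were mostly higher in the late-labelled library. All 15 measured genes of this list had at least 5 FPKM in both libraries, 13 were 2-fold higher in the late-labelled library and none in the peak-labelled one, with a median ratio of 1.61. FABP3, which carries fatty acids within the cell, had 3051 FPKM in the early-labelled, 563 in the peak-labelled and 3583 in the late-labelled library, a ratio of 2.67. RAB18, a small GTPase of lipid droplets, had 469, 112 and 562 FPKM, a ratio of 2.32. BTN1A1, or butyrophilin, a membrane protein needed for the release of fat globules, had 2940, 1241 and 3788 FPKM, a ratio of 1.61. PLIN2, the coat protein of lipid droplets, had 1298, 452 and 1268 FPKM, a ratio of 1.48. The 2 members under 2-fold were the tetraspanin CD9, with 155 FPKM in the peak-labelled and 116 in the late-labelled library, and TPD52, with 45.1 and 58.9, both named after their values were seen.

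Synthesis of fatty acids, triglycerides and cholesterol followed the same direction. Among 16 genes of fatty acid synthesis, 9 were 2-fold higher in the late-labelled library and none in the peak-labelled one, with a median ratio of 1.16, or 0.68 over the 19 measured genes without a filter. FASN, the fatty acid synthase, had 1175, 508 and 2036 FPKM in the early-labelled, peak-labelled and late-labelled libraries, or 4.01 times the peak-labelled value in the late-labelled one. ACACA makes the malonyl-CoA that FASN uses, and had 106, 51.1 and 196 FPKM, a ratio of 1.92. PGD, an enzyme of the pentose phosphate pathway that supplies NADPH, was closer, with 39.9 FPKM in the peak-labelled and 64.4 in the late-labelled library. The ratios of the list reached down to -0.91, and 3 of the 16 were below 0. For uptake and triglyceride assembly, 10 of 20 genes were 2-fold higher in the late-labelled library and 1 in the peak-labelled one, ACSL5, named after its values were seen, with 22.2 and 6.66 FPKM. GPAM, which starts triglyceride assembly on the mitochondrial membrane, had 591, 105 and 674 FPKM, a ratio of 2.68. GPAT4, the enzyme of the same step in the endoplasmic reticulum (ER), had 195, 75.8 and 190 FPKM, a ratio of 1.31.

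In cholesterol synthesis, 13 of 20 genes were 2-fold higher in the late-labelled library and none in the peak-labelled one, and 19 of the 20 ratios were above 0. MSMO1, a sterol demethylase, had 68.2 FPKM in the early-labelled, 41.2 in the peak-labelled and 123 in the late-labelled library, a ratio of 1.56. HSD17B7, another enzyme of the late pathway, had 23.9, 14.5 and 41.2 FPKM, a ratio of 1.44. HMGCS1, an early enzyme of the pathway, was just under 2-fold apart, with 35.5, 23.1 and 45.7 FPKM and a ratio of 0.96. In these 3 genes the early-labelled value lay between the other two.

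Lactose synthesis was mixed by gene. Of 15 genes with at least 5 FPKM, 5 were 2-fold higher in the late-labelled library and 1 in the peak-labelled one, the 1 being LALBA, listed at 0. With LALBA left out, 5 of 14 were higher in the late-labelled library and none in the peak-labelled one. B4GALT1, the galactosyltransferase that works with alpha-lactalbumin, had 381, 121 and 447 FPKM in the early-labelled, peak-labelled and late-labelled libraries, a ratio of 1.88. GPI, an enzyme of glycolysis, had 36.2, 37.96 and 30.2 FPKM. The median ratio of the list was 0.17, near that of all genes, and turned to -0.04 with the scaling that leaves out the 50 most abundant genes.

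Membrane transporters of milk constituents were higher in the late-labelled library for part of their lists. For calcium, phosphate and zinc, 8 of 17 genes were 2-fold higher there and 1 in the peak-labelled library, with a median ratio of 0.53. SLC34A2, the sodium-phosphate carrier of the apical membrane, had 162 FPKM in the early-labelled, 16.6 in the peak-labelled and 96.5 in the late-labelled library, a ratio of 2.47. ATP2C2, a calcium and manganese pump of the Golgi, had 187, 46.6 and 213 FPKM, a ratio of 2.17, while its relative ATP2C1 had 26.8 in the peak-labelled and 33.8 in the late-labelled library. SLC39A8, an importer of zinc and manganese, had 200, 74.2 and 270 FPKM, a ratio of 1.85. For amino acids, 6 (33.3%) of 18 genes were 2-fold higher in the late-labelled and 2 (11.1%) in the peak-labelled library. SLC38A3, a glutamine carrier, had 5.01 FPKM in the peak-labelled and 20.2 in the late-labelled library, a ratio of 1.82. SLC1A1, a glutamate carrier, had 41.7 and 147 FPKM, a ratio of 1.79, and SLC1A4 had nearly equal values, 15.8 and 16.8.

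The general machinery behind secretion differed less than the milk genes themselves. Among 48 genes of ER translocation and vesicle coats, 45 had ratios above 0, but 8 reached 2-fold in the late-labelled library and none in the peak-labelled one, with a median ratio of 0.66. SEC62 assists the passage of proteins into the ER, and had 80.0, 23.7 and 78.0 FPKM in the early-labelled, peak-labelled and late-labelled libraries, a ratio of 1.68. SEC11C, a subunit of the signal peptidase, had 119, 53.4 and 158 FPKM, a ratio of 1.55. SSR4, of the translocon-associated complex, had 776, 313 and 733 FPKM, a ratio of 1.22. The vesicle coat gene COPE was closer, with 67.3 FPKM in the peak-labelled and 82.0 in the late-labelled library.

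ER chaperones were mostly under 2-fold apart. Of 24 genes, 1 was 2-fold higher in the late-labelled library and none in the peak-labelled one, with a median ratio of 0.46. That gene was SDF2L1, a cofactor of the chaperone HSPA5, with 14.2 FPKM in the peak-labelled and 43.9 in the late-labelled library, a ratio of 1.56. P4HB, a disulfide isomerase, had 227 and 432 FPKM, a ratio of 0.92. The large chaperone gene HSP90B1 had 170 FPKM in the peak-labelled and 167 in the late-labelled library.

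Ribosome and mitochondrial genes were compact groups. None of 63 genes of cytosolic ribosomal proteins was 2-fold apart, and their ratios ran from -0.27 to 0.81 around a median of 0.23, which became 0.01 with the scaling that leaves out the 50 most abundant genes. RPS29 had 1963 FPKM in the peak-labelled and 2168 in the late-labelled library, and RPL22 had 505 and 518. The largest ratio was that of RPS10, with 163 and 287 FPKM. All 54 genes of the respiratory chain with at least 5 FPKM had ratios above 0 with FPKM as deposited, from 0.12 to 1.39. Of these, 5 (9.26%) were 2-fold higher in the late-labelled library, near the 7.58% of all genes. With the scaling that leaves out the 50 most abundant genes, 2 were. NDUFA4, a subunit of cytochrome oxidase, had 106, 48.1 and 128 FPKM in the early-labelled, peak-labelled and late-labelled libraries, a ratio of 1.39. ATP5B, the catalytic subunit of ATP synthase, had 189, 113 and 188 FPKM, a ratio of 0.73.

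**Figure D2:**
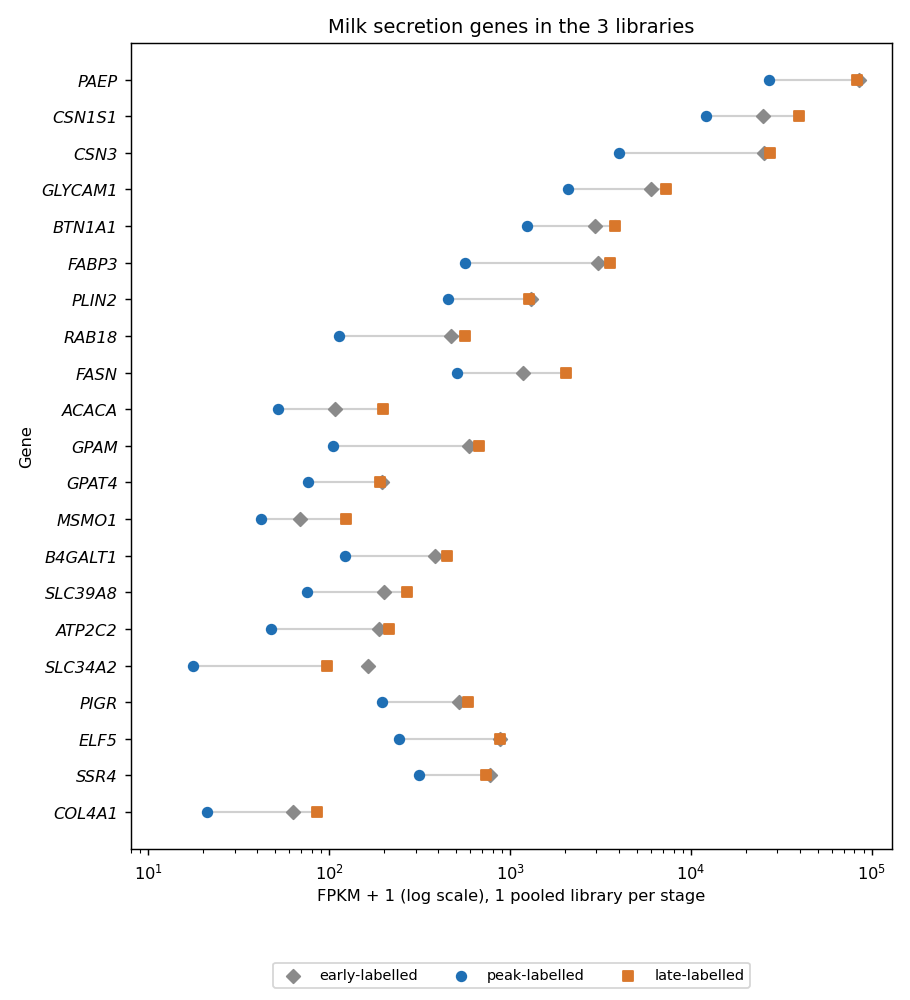
Points show FPKM + 1 on a log scale for 21 genes in the early-labelled (diamond), peak-labelled (circle) and late-labelled (square) library, 1 pooled library each. A line joins the peak-labelled and late-labelled values. The peak-labelled library has the lowest value of every gene drawn, from 26998 FPKM for PAEP to 16.6 FPKM for SLC34A2.

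In hormone signalling, 4 (25%) of 16 genes of the prolactin and STAT5 list were 2-fold higher in the late-labelled library, against 7.58% of all genes. In the peak-labelled one 1 (6.25%) was, against 8.83%. ELF5, the factor that drives the secretory fate downstream of prolactin, had 879 FPKM in the early-labelled, 244 in the peak-labelled and 875 in the late-labelled library, a ratio of 1.84. SOCS3, a feedback inhibitor induced by STAT3, had 4.87, 10.7 and 1.69 FPKM, a ratio of -2.12. The insulin receptor gene INSR had 34.7 FPKM in the peak-labelled and 36.8 in the late-labelled library, and PRLR, the prolactin receptor, named after its values were seen, had 67.9 and 131.

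Epithelial identity genes were mostly under 2-fold apart. Of 24 luminal genes, 2 (8.33%) were 2-fold higher in the late-labelled library, ELF5 among them, near the 7.58% of all genes, and 4 in the peak-labelled one, or 2 of the 21 with 5 FPKM in both. KIT, a receptor tyrosine kinase of luminal progenitors, had 9.82 FPKM in the peak-labelled and 1.12 in the late-labelled library, a ratio of -2.35. CDH1, or E-cadherin, the adhesion protein of epithelia, had 39.8 and 36.7 FPKM. Of 16 basal and myoepithelial genes, 2 were 2-fold higher in the late-labelled and 1 in the peak-labelled library, and the median ratio of 0.03 became -0.17 with that scaling. OXTR, the oxytocin receptor of milk ejection, had 1.14 and 5.43 FPKM, a ratio of 1.58, and the smooth muscle actin gene ACTG2 had 7.30 and 17.9, a ratio of 1.19. TAGLN, a protein of contractile cells, was near equal, with 173 and 176 FPKM. The summed FPKM of 7 myoepithelial markers was 269 in the peak-labelled and 287 in the late-labelled library, although KRT5 and TP63 among them were higher in the peak-labelled one.

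Apart from CSN3, the named genes with the largest ratios towards the late-labelled library were not milk protein genes. RGS4, a regulator of G-protein signalling, had 111 FPKM in the early-labelled, 6.60 in the peak-labelled and 92.4 in the late-labelled library, a ratio of 3.62, and is listed on scaffold NW_005100627.1 from 1189739 to 1196843. AGR2, a disulfide isomerase of secretory epithelia, had 27.7, 5.88 and 55.4 FPKM, a ratio of 3.03. AZGP1, the secreted zinc-alpha-2-glycoprotein, had 47.3, 8.73 and 71.5 FPKM, a ratio of 2.90. C9, a component of the complement membrane attack complex, had 115, 17.8 and 136 FPKM, a ratio of 2.86. The co-chaperone gene DNAJC12 had 161, 53.7 and 353 FPKM, a ratio of 2.69, and the sodium channel gene SCN7A had 24.4, 7.47 and 63.6, a ratio of 2.93. The others were TECTB, HPRT1 and C3H2orf82, with ratios of 3.04, 2.92 and 2.89. HPRT1, of purine salvage, had 0.0362 FPKM in the peak-labelled library at a locus of 1332 nt, short for a gene with introns. Among unnamed genes LOC102186944, chosen after its values were seen, had 257, 11.9 and 474 FPKM, a ratio of 5.20.

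Among the named genes, the 10 largest ratios towards the peak-labelled library ran from -7.46 to -3.91. AGP, named for alpha-1-acid glycoprotein, a plasma and milk protein of the acute phase, had 5.31 FPKM in the early-labelled, 279 in the peak-labelled and 0.588 in the late-labelled library, a ratio of -7.46. It is listed on scaffold NW_005100742.1 from 15658885 to 15662302. TFF3, a trefoil peptide that protects mucous surfaces, had 1.72, 59.4 and 1.15 FPKM, a ratio of -4.81. AREG, or amphiregulin, a ligand of the epidermal growth factor receptor, had 2.62, 24.2 and 0.426 FPKM, a ratio of -4.14. CFI, a protease that inactivates complement, had 10.2, 45.5 and 1.72 FPKM, a ratio of -4.10. TRPV6, an epithelial calcium channel, had 1.83, 15.4 and 0.0335 FPKM, a ratio of -3.99. In these 5 genes the early-labelled value lay between the others. The other 5 of the 10 were PLEKHS1, ERV3-1, PRR13, MPZL2 and LPP, with ratios of -4.70, -4.52, -4.29, -4.02 and -3.91, and the loci of MPZL2 and LPP are shared with other entries.

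Another 9 genes with at least 5 FPKM in the peak-labelled library were listed at 0 in the late-labelled one, and none the reverse. These were counted among the 768, and without them 759 remained. The most abundant were LALBA, SPINK9, a protease inhibitor with 149 FPKM in the peak-labelled library, and HES4, with 118 FPKM at a locus of only 211 nt.

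**Figure D3:**
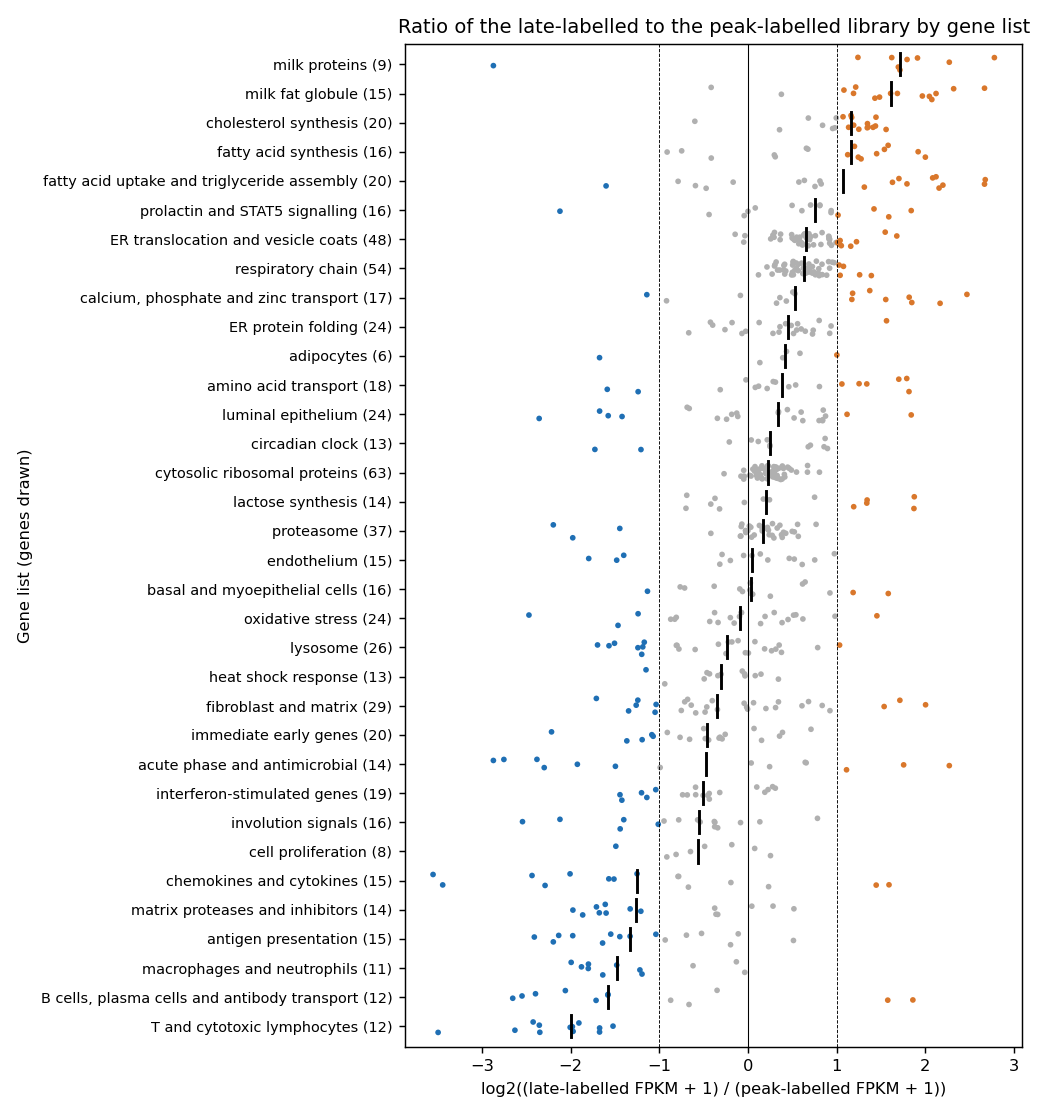
Each point is a gene with at least 5 FPKM in the peak-labelled or late-labelled library and above 0 in both, placed by log2((late + 1)/(peak + 1)) within its gene list. Black bars are list medians, dashed lines 2-fold, and the number of genes is given after each name. Milk protein and lipid lists lie at the top, with medians above 1. Several immune lists and that of matrix proteases lie at the bottom, with T and cytotoxic lymphocytes at -1.99. The 12 genes of this last list reached 5 FPKM in the peak-labelled library alone, and the median over its 20 measured genes was -1.70.

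Genes of lymphocytes were higher in the peak-labelled library. Of 20 measured genes of T and cytotoxic cells, 19 were 2-fold higher in the peak-labelled library without a filter on FPKM, against 9.32% of all 13023 genes, and 1 was higher in the late-labelled one, against 5.9%. The latter was CD3E, listed at 0 in the peak-labelled library. The 12 genes with at least 5 FPKM passed through the peak-labelled library alone, and none reached 5 in the late-labelled one. CCL5, a chemokine of activated T cells, had 10.8, 32.8 and 2.003 FPKM in the early-labelled, peak-labelled and late-labelled libraries, a ratio of -3.49. CD2, an adhesion molecule of T and natural killer cells, had 6.25, 12.6 and 1.21 FPKM, a ratio of -2.63. CD247, the zeta chain of the T cell receptor complex, had 4.99, 14.7 and 3.20 FPKM, a ratio of -1.91. For these genes the early-labelled library was intermediate.

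B lineage and antibody transport genes were counted together. Of 12 genes, 7 were 2-fold higher in the peak-labelled and 2 in the late-labelled library, with a median ratio of -1.58. All 12 had at least 5 FPKM in the peak-labelled library and 7 in the late-labelled one, and among the genes with 5 FPKM in both, 3 were higher in the peak-labelled and 2 in the late-labelled library, with a median of -0.66. CD79B, part of the B cell receptor, had 1.08, 7.22 and 0.308 FPKM in the early-labelled, peak-labelled and late-labelled libraries, a ratio of -2.65. POU2AF1, a coactivator of B cells, had 4.71, 21.6 and 2.87 FPKM, a ratio of -2.55. JCHAIN, which joins the units of secreted IgA and IgM, differed less, with 429 FPKM in the peak-labelled and 337 in the late-labelled library. PIGR is the epithelial receptor that carries these antibodies into milk. It had 521, 195 and 585 FPKM, a ratio of 1.58, and CCL28, an epithelial chemokine that attracts plasma cells, named after its values were seen, had 18.5 and 69.97 FPKM in the peak-labelled and late-labelled libraries. FCGRT, the neonatal Fc receptor that carries IgG, also named after its values were seen, ran the other way with 54.7 and 17.7 FPKM.

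Part of the macrophage genes were higher in the peak-labelled library. All 11 genes with at least 5 FPKM in either library reached 5 in both, 8 were 2-fold higher in the peak-labelled library and none in the late-labelled one, with a median ratio of -1.48. Another 10 measured genes of this list stayed below 5 FPKM in both, and over all 21 the median was -0.91. C1QA, which with C1QB forms part of the first complement component, had 58.5, 107 and 28.4 FPKM in the early-labelled, peak-labelled and late-labelled libraries, a ratio of -1.88. C1QB had 29.2, 54.3 and 12.9 FPKM, a ratio of -1.99. TYROBP, a signalling adaptor of myeloid cells, had 24.0, 31.5 and 13.0 FPKM, a ratio of -1.22. Summed over 4 macrophage markers, FPKM was 149 in the peak-labelled and 49.4 in the late-labelled library, and over 4 T cell markers 28.2 and 4.83. The part of cell numbers in these differences was not tested.

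Antigen presentation followed the immune lists. Of 15 genes, 9 were 2-fold higher in the peak-labelled library and none in the late-labelled one, with a median ratio of -1.33. Among the 13 with 5 FPKM in both libraries, 7 were higher in the peak-labelled one, with a median of -1.04. IRF1, a transcription factor induced by interferon gamma, had 14.2, 39.1 and 6.55 FPKM in the early-labelled, peak-labelled and late-labelled libraries, a ratio of -2.41. PSMB9, a subunit of the immunoproteasome, had 15.2, 51.4 and 10.5 FPKM, a ratio of -2.19. PSMB10, another such subunit, had 34.4 FPKM in the peak-labelled and 8.004 in the late-labelled library, a ratio of -1.97. Together with PSMB8, named after its values were seen, these were the 3 of 37 proteasome genes (8.11%) 2-fold higher in the peak-labelled library. That share is near the 8.83% of all genes. None was 2-fold higher in the late-labelled library, and PSMA5 of the standard proteasome had 38.7 and 38.1 FPKM. B2M, the light chain of class I molecules, ran the other way, with 103 FPKM in the peak-labelled and 148 in the late-labelled library, a ratio of 0.51.

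Interferon-stimulated genes differed less. Of 19 genes, 5 were 2-fold higher in the peak-labelled library and none in the late-labelled one, with a median ratio of -0.51. Among the 12 with 5 FPKM in both libraries, 2 were higher in the peak-labelled one, with a median of -0.44. IFIT5, an RNA-binding antiviral protein, had 8.72, 17.8 and 6.02 FPKM in the early-labelled, peak-labelled and late-labelled libraries, a ratio of -1.42. IFI35 had 19.5 FPKM in the peak-labelled and 22.4 in the late-labelled library.

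Among 16 chemokine and cytokine genes, 9 were 2-fold higher in the peak-labelled and 2 in the late-labelled library, with a median ratio of -1.38, or -0.79 over the 25 measured genes. In the late-labelled library 7 of the 16 had at least 5 FPKM, and none of the 5 genes with 5 FPKM in both libraries was 2-fold apart, so the 9 genes passed through the peak-labelled library alone and the 2 through the late-labelled one alone. CXCL10, which attracts T cells, had 18.6, 42.3 and 2.70 FPKM in the early-labelled, peak-labelled and late-labelled libraries, a ratio of -3.55, at a locus shared with other entries. CXCL13, which attracts B cells, had 2.15, 10.8 and 0.0874 FPKM, a ratio of -3.44. CXCL11, of the same family as CXCL10 and listed at the same locus, was close, with 7.23 FPKM in the peak-labelled and 6.21 in the late-labelled library. Of 15 acute phase and antimicrobial genes, 7 were 2-fold higher in the peak-labelled and 3 in the late-labelled library, with a median ratio of -0.99. Among the 11 with 5 FPKM in both libraries, 4 were higher in the peak-labelled and 2 in the late-labelled one, with a median of 0.04. Of 30 names in this list 20 were matched, and of 39 in the chemokine and cytokine list 28. SAA3, HP, IL8 and CCL2 were among those not matched. S100A8, a calcium-binding protein of neutrophils, had 4.65 and 7.57 FPKM in the early-labelled and peak-labelled libraries and was listed at 0 in the late-labelled one. LPO, the milk peroxidase lactoperoxidase, named after its values were seen, had 61.4 and 300 FPKM.

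**Figure D4:**
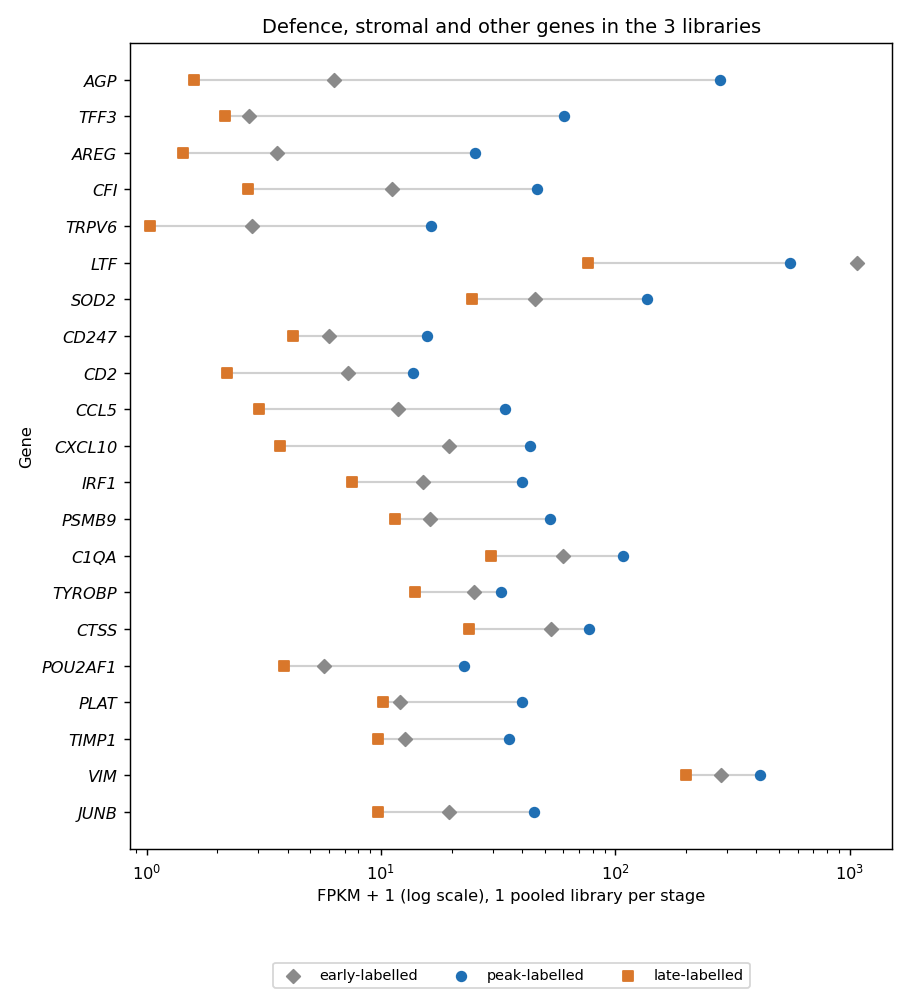
Points show FPKM + 1 on a log scale for 21 genes in the early-labelled (diamond), peak-labelled (circle) and late-labelled (square) library, 1 pooled library each. The late-labelled library has the lowest value of every gene drawn and the early-labelled one lies between the others, except for LTF, which is highest in the early-labelled library at 1074 FPKM.

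Part of the matrix proteases and their inhibitors were higher in the peak-labelled library. Of 14 genes, 8 were 2-fold higher there, 6 of them with 5 FPKM in both libraries, and none in the late-labelled one, with a median ratio of -1.27, or -0.84 over the 18 measured genes without a filter. PLAT, the tissue activator of plasminogen, had 11.1, 39.0 and 9.20 FPKM in the early-labelled, peak-labelled and late-labelled libraries, a ratio of -1.97. TIMP1, an inhibitor of matrix metalloproteases, had 11.7, 34.2 and 8.69 FPKM, a ratio of -1.86. TIMP3, its relative, was under 2-fold apart, with 91.9 FPKM in the peak-labelled and 71.4 in the late-labelled library. The metalloproteases MMP14 and MMP2, named after their values were seen, had 58.1 and 69.1 FPKM in the peak-labelled and 17.1 and 20.9 in the late-labelled library.

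Stromal matrix genes were mostly under 2-fold apart. Of 29 genes, 6 (20.7%) were 2-fold higher in the peak-labelled library, against 8.83% of all genes, and 3 (10.3%) in the late-labelled one, against 7.58%. COL4A1 and COL4A2 encode the chains of basement membrane collagen. COL4A1 had 62.0, 20.2 and 84.2 FPKM in the early-labelled, peak-labelled and late-labelled libraries, 4.16 times as high in the last as in the peak-labelled one, and COL4A2 had 43.8, 17.5 and 59.7, a ratio of 1.71. VIM, the intermediate filament of stromal cells and leukocytes, had 282, 414 and 200 FPKM, a ratio of -1.05. LUM, a proteoglycan of fibrous collagen, had 32.1 FPKM in the peak-labelled and 40.2 in the late-labelled library. Summed over 6 fibroblast markers, FPKM was 549 in the peak-labelled and 542 in the late-labelled library, although DCN and PDGFRA among them were 2-fold higher in the peak-labelled one.

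Vessels and fat showed small differences. Of 15 endothelial genes, 3 were 2-fold higher in the peak-labelled library and none in the late-labelled one, and the median ratio was 0.05, which became -0.16 with the scaling that leaves out the 50 most abundant genes. The 3 genes passed the limit of 5 FPKM through the peak-labelled library alone, and none of the 11 with 5 FPKM in both was 2-fold apart. ANGPT2, a regulator of vessel remodelling, had 12.5 FPKM in the peak-labelled and 2.89 in the late-labelled library, a ratio of -1.79. LYVE1, a receptor of lymphatic vessels, had 8.94 and 2.57 FPKM, a ratio of -1.48. PECAM1, present throughout endothelium, had 46.9 and 38.1 FPKM. Of 6 adipocyte genes with at least 5 FPKM, 1 was 2-fold apart in each direction, RBP4 with 7.01 and 1.51 FPKM and the lipase gene PNPLA2 with 7.30 and 15.6. Among the measured markers that define fat cells, PLIN1 and CIDEC were below 1 FPKM in both libraries. ADIPOQ, another of them, had 15.1 FPKM in the early-labelled, 4.10 in the peak-labelled and 5.69 in the late-labelled library.

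Of 16 genes of involution signals, 5 (31.25%) were 2-fold higher in the peak-labelled library, against 8.83% of all genes. None was in the late-labelled one, and 14 ratios were below 0. Of the 12 with 5 FPKM in both libraries, 2 were higher in the peak-labelled one, and LRP2 and SOCS3 were not among these 12. LRP2, an endocytic receptor, had 3.65, 11.6 and 1.17 FPKM in the early-labelled, peak-labelled and late-labelled libraries, a ratio of -2.54, and SOCS3 was given above. STAT3, the factor that starts involution, had nearly the same mRNA level, with 40.9 FPKM in the peak-labelled and 38.6 in the late-labelled library. MCL1, which protects from apoptosis, had 89.0 and 59.8 FPKM.

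Of 26 lysosomal genes, 7 (26.9%) were 2-fold higher in the peak-labelled library, against 8.83% of all genes. In the late-labelled one 1 (3.85%) was, against 7.58%. CTSS, a cathepsin of antigen-presenting cells, had 52.0, 75.9 and 22.7 FPKM in the early-labelled, peak-labelled and late-labelled libraries, a ratio of -1.70. CTSZ, another cathepsin, had 31.5, 51.6 and 16.8 FPKM, a ratio of -1.57. PSAP, the precursor of the saposins, had 190 FPKM in the peak-labelled and 248 in the late-labelled library, and NPC2, a cholesterol carrier of the lysosome, had 61.6 and 60.4.

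Proliferation genes were scarce in both libraries. Of 27 measured genes, 8 reached 5 FPKM, of which CCND1, or cyclin D1, was 2-fold higher in the peak-labelled library, with 13.5 against 4.17 FPKM and a ratio of -1.49. It passed through the peak-labelled library alone, and none of the 6 genes with 5 FPKM in both was 2-fold apart. The replication genes MCM6 and PCNA were under 2-fold apart, with 10.8 and 9.71 FPKM in the peak-labelled and 5.28 and 11.8 in the late-labelled library.

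Stress and stimulus genes can also respond to surgery and handling of tissue. Of 20 immediate early genes, 5 (25%) were 2-fold higher in the peak-labelled library, against 8.83% of all genes, or 3 of the 16 with 5 FPKM in both. None was 2-fold higher in the late-labelled one. JUNB, a transcription factor of this class, had 18.6, 43.9 and 8.68 FPKM in the early-labelled, peak-labelled and late-labelled libraries, a ratio of -2.21. JUN itself had 79.5 FPKM in the peak-labelled and 66.4 in the late-labelled library, and KLF6 had 43.6 and 45.8. Of 13 heat shock genes, 1 (7.69%), CRYAB, was 2-fold higher in the peak-labelled library, below the 8.83% of all genes, with 25.7 against 11.05 FPKM, while HSPA8 had 240 and 190. Among 24 antioxidant genes, 3 (12.5%) were 2-fold higher in the peak-labelled library, against 8.83% of all genes. In the late-labelled one 1 (4.17%) was, against 7.58%, and with 5 FPKM in both 1 of 20 in each direction. SOD2, the mitochondrial superoxide dismutase that inflammation induces, had 44.5, 135 and 23.6 FPKM, a ratio of -2.47. SOD1, the cytosolic form, had 235, 129 and 255 FPKM, a ratio of 0.98 in the other direction. Of 13 clock genes, 2 (15.4%) were 2-fold higher in the peak-labelled library and none in the late-labelled one. These were BHLHE41 and BHLHE40, with 6.51 and 16.8 FPKM against 1.27 and 6.73.

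The early-labelled library mostly lay between the others. Of the 659 genes higher in the late-labelled library, 541 (82.1%) had an early-labelled value between the peak-labelled and late-labelled ones, and 602 (91.4%) were nearer to the late-labelled value on the log2 scale. Of the 768 genes higher in the peak-labelled library, the numbers were 720 (93.8%) and 605 (78.8%). These are each library's own values and share the libraries of the comparison.

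The direction of the differences went with the level of the gene. Among the 1739 genes with the highest mean FPKM, 16.6% were 2-fold higher in the late-labelled and 4.72% in the peak-labelled library. Among the 1739 with the lowest mean, these shares were 5.12% and 20.2%. Of all 8693 genes, 1104 passed the limit of 5 FPKM through the peak-labelled library alone and 515 through the late-labelled one alone. With 5 FPKM asked of both libraries, 487 genes were 2-fold higher in the late-labelled and 229 in the peak-labelled library. By span of the locus the medians varied little, from 0.13 in the shortest to 0.00 in the longest of 5 equal groups.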

How the data were processed

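Mammary gland RNA of 5 goats per stage was pooled by the authors into 1 TruSeq stranded library per stage. The authors trimmed reads with Trimmomatic, mapped them with TopHat 2.0.9, assembled them with Cufflinks 2.1.1 and Cuffmerge, and deposited FPKM from Cuffdiff. The deposited table names no assembly for its scaffolds. Columns were assigned to libraries by the sample descriptions.

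Loci with 1 NCBI gene ID were matched to the ARS1.2 gene table for symbols and biotype, and loci of 1 protein-coding gene were summed. Genes in 1006 cases had a locus also listed for another entry. Besides those flagged above, these included GPI, SLC1A1, ATP2C2, SEC11C, TAGLN, TIMP1, TIMP3, ANGPT2 and BHLHE40. Fold calling was tested on simulated data. Genes and lists were chosen with earlier results of these data known, and lists were matched by symbol or synonym. Named were the 10 largest ratios per direction among genes above 0 in both libraries and not named LOC, up to 3 genes listed at 0 per direction, the 5 most abundant, and up to 4 per list (largest 2 ratios, highest level, smallest ratio above the median level). With 1 library per stage, no test was run. Alternatives changed the pseudocount, filter, fold, scale and summing of loci. Python 3.11.15, numpy 2.4.6, pandas 2.3.3 and matplotlib 3.10.9 were used. Results for a few list members are not reported here.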

Additional observations from a re-analysis of the deposited data

How the results depend on the processing

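With 1 library per stage, no replicate could be left out. No paired analysis was possible because a stage is represented by a single library. A pseudocount of 5 left 399 genes higher in the late-labelled and 335 in the peak-labelled library, 734 in all. At a fold of at least 4 the numbers were 79, 173 and 252, and at 1.5 they were 1602, 1366 and 2968. Asking 5 FPKM of both libraries left 229 genes higher in the peak-labelled library and 716 in all, and no filter gave 1214 higher in the peak-labelled library. Scaling to the sum without the 50 most abundant genes left 428 higher in the late-labelled library. The main setting had more genes higher in the peak-labelled library. A pseudocount of 5, a fold of 1.5 and 5 FPKM in both libraries each gave more in the late-labelled one. Why the counts changed was not tested. The other 20 counts stayed within 1.5 times. Of the list medians, that of lactose synthesis turned to -0.0377 and that of the proteasome to -0.0525 under this scaling, and that of acute phase genes to 0.0373 with 5 FPKM in both libraries, and the cause was not tested. Medians near 0 also turned, that of antioxidant genes from -0.08 to 0.04 with 5 FPKM in both, those of basal and endothelial genes to -0.17 and -0.16 with the scaling and -0.11 and -0.09 when centred, and that of skeletal muscle from -0.06 to 0.24 without a filter. Of the list medians other than the first 3, 120 values stayed the same to 2 decimals and 199 moved. No gene called 2-fold apart and named by the rule changed sign. The list medians without a filter were added after the data were seen. Exchanging the labels would turn every sign. The depth behind each FPKM is unknown.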

Other observations

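Gene families with a shared symbol stem and at least 12 genes at 5 FPKM or more were also summarised, 69 in all, chosen after the data were seen. Over all 8693 genes, 7.58% were 2-fold higher in the late-labelled and 8.83% in the peak-labelled library. Of 144 solute carrier genes (SLC), 38 (26.4%) were 2-fold higher in the late-labelled library and 9 (6.25%) in the peak-labelled one. Their median ratio was 0.34 against 0.09 over all genes. The SEC genes of protein translocation and vesicle coats had 7 of 23 (30.4%) higher in the late-labelled library and none in the peak-labelled one. Their median of 0.77 was the highest of these stems. Of 15 LRRC genes, which encode leucine-rich repeat proteins, 5 (33.3%) were higher in the late-labelled library and none in the peak-labelled one. At the other end, the interleukin and interleukin receptor genes (IL) had the lowest median, -0.75. Of these, 7 of 22 (31.8%) were higher in the peak-labelled library and none in the late-labelled one. Of 39 genes named CD for leukocyte and other surface antigens, 18 (46.2%) were higher in the peak-labelled and 6 (15.4%) in the late-labelled library. The 99 zinc finger genes (ZNF) differed little, with 4 (4.04%) higher in the peak-labelled and 2 (2.02%) in the late-labelled library.

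Among unnamed genes, chosen after their values were seen, LOC102179515 had 1.89 FPKM in the early-labelled, 48.1 in the peak-labelled and 0.410 in the late-labelled library, a ratio of -5.12, and LOC102180465 had 518, 136 and 988 FPKM, a ratio of 2.85. Their products were not identified here.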
